A study of Mus musculus with 8 samples.

Results

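The 10 genes described here code for the classical MHC class II chains (H2-Aa, H2-Ab1, H2-Eb1), the invariant chain (Cd74), the peptide exchange factor H2-DM (H2-DMa, H2-DMb1, H2-DMb2), its partner H2-O (H2-Oa, H2-Ob) and the class II transactivator (Ciita). They were taken by gene symbol, and all 10 were found among the 13204 genes of the deposited table. RNA was sequenced from mouse OT-I cells, CD8 T cells whose transgenic receptor recognises an ovalbumin peptide, sorted from spleen 14 days after a skin graft that expressed ovalbumin. In every group 1000000 OT-I cells had been transferred 24 hours before grafting, and 1000 cells were sorted per library as CD44hi, Thy1.1+ and CD8+. The FcgRIIB-positive group (4 libraries) carried the inhibitory IgG receptor FcgRIIB on the surface, and the FcgRIIB-negative group (4 libraries) did not. Each of 4 pools of 3 spleens gave 1 library to both groups, and the replicate number is the pool. Both groups came from the same grafted animals, so no ungrafted cells are compared here, and a library averages cells of 3 animals. The labels give the strain only as OT-I, and the sources used here give no age.

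MHC class II molecules show peptides from endocytosed protein to CD4 T cells. An alpha and a beta chain assemble on the invariant chain, proteases trim that chain to the fragment CLIP, H2-DM exchanges CLIP for peptide, and H2-O restrains H2-DM. Ciita is a coactivator that binds no DNA itself and is recruited by proteins on the X and Y boxes of class II promoters. In mouse spleen these genes are known from dendritic cells, B cells and macrophages, and mouse T cells are generally held not to transcribe them.

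Promoter stretches are shown for 6 members in which an X and a Y element were found, since most members were called higher together. RefSeq promoter windows (GRCm38.p6, 250 bases before to 50 after a start) exist for 7 of the 10 members, and H2-Ab1, Cd74 and Ciita have no entry. In 6 of these 7 an X-like element was followed by a Y box. The stretches below read 5′ to 3′ on the gene's strand, and capitals mark GATTGG (the Y box) and 1 or both of 2 forms of the X box. The longer form is AAC, any 2 bases, then ATGATG; the short core is GCAAC, which overlaps the longer form in AAC where both are present.
H2-Aa, chr17:34287861-34287910, minus strand: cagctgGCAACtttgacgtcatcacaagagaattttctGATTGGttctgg
H2-Eb1, chr17:34305770-34305818, plus strand: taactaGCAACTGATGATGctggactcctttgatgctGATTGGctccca
H2-DMb1, chr17:34153093-34153140, plus strand: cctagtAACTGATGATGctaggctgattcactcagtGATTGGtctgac
H2-DMb2, chr17:34145122-34145169, plus strand: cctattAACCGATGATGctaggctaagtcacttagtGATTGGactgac
H2-Oa, chr17:34092297-34092346, plus strand: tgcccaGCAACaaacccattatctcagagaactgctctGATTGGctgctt
H2-Ob, chr17:34238812-34238858, plus strand: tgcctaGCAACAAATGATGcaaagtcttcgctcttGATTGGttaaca

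From the AAC that both X forms contain (its first base) to the first base of the Y box the spacing was 30 bases in H2-Aa, H2-Oa, H2-DMb1 and H2-DMb2, 29 in H2-Eb1 and 27 in H2-Ob. H2-DMa has 2 windows, and neither held such a pair. The letters were chosen after the sequences were seen, and both strands were searched in all 32851 windows. GATTGG was in 16.1% of windows, GCAAC in 35.2% and the longer X box in 0.137%. A Y box within 40 bases after the longer X box was found in 4 windows in all, those of H2-Eb1, H2-DMb1, H2-DMb2 and H2-Ob, and one after GCAAC in 206 windows (0.627%). H2-Ob and H2-Eb1 both matched the longer X box and the Y box, but differed in the 2 free bases and in spacing. H2-Ob had the smallest expression difference of all members and H2-Eb1 the largest, and a link to these letters was not tested. These matches are descriptions of letters in a window.

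FcgRIIB-positive libraries had more class II transcript throughout. All 10 members were higher in the positive library of all 4 pools, and the share of all genes with this pattern was not counted. By limma 9 of 10 members were called higher at an adjusted p under 0.05, against 3.03% of the 11946 genes tested. None was called lower, against 0.268% of genes. With the pool as a block all 10 were called higher and none lower, against 7.22% and 3.85% of genes. For 9 of 10 members every positive library lay above every negative library, which held for 4.61% of genes. The median log2 fold change was 3.38 over the members and -0.11 over all genes tested. Fold changes here are differences in log2(RPKM + 1), FcgRIIB-positive minus FcgRIIB-negative, and understate the change of low genes; means are given with the SD over the 4 libraries of a group. RPKM is divided by exon length and depth, so levels of different genes stand on 1 scale, although libraries differed in how values ran with exon length. Fewer cells of a type and less RNA per cell cannot be told apart in such bulk libraries.

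The members took 1.69%, 1.95%, 2.36% and 2.28% of all reads in positive replicates 1 to 4, against 0.119%, 0.373%, 0.113% and 0.215% in negative replicates 1 to 4. The lowest positive share was thus over 4 times the highest negative one. Depth lay between 3060000 and 22010000 reads, the smallest number of reads behind a member's value was 38 (Ciita in negative replicate 3), and in positive libraries it was 539. These reads come from amplified cDNA and are not independent molecules, and replicate spread sets the errors. Fcgr2b itself, whose protein was the sorting criterion, averaged 48.5 ± 17.8 RPKM in positive libraries, against 3.65 ± 1.43 RPKM in negative ones (SD, n = 4 each), in the direction of the labels. Cd8a, which codes for a chain of the CD8 used in the sort, was at 153 to 239.5 RPKM in positive libraries, against 165 to 330.4 RPKM in negative libraries. Cd8b1, which codes for the other CD8 chain, was at 404 to 959 RPKM in positive libraries, against 1042 to 1986 RPKM in negative libraries. Every positive library of Cd8b1 thus lay below every negative one, and the difference was not called (log2 fold change -0.95, limma adjusted p = 0.488).

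**Figure D1:**
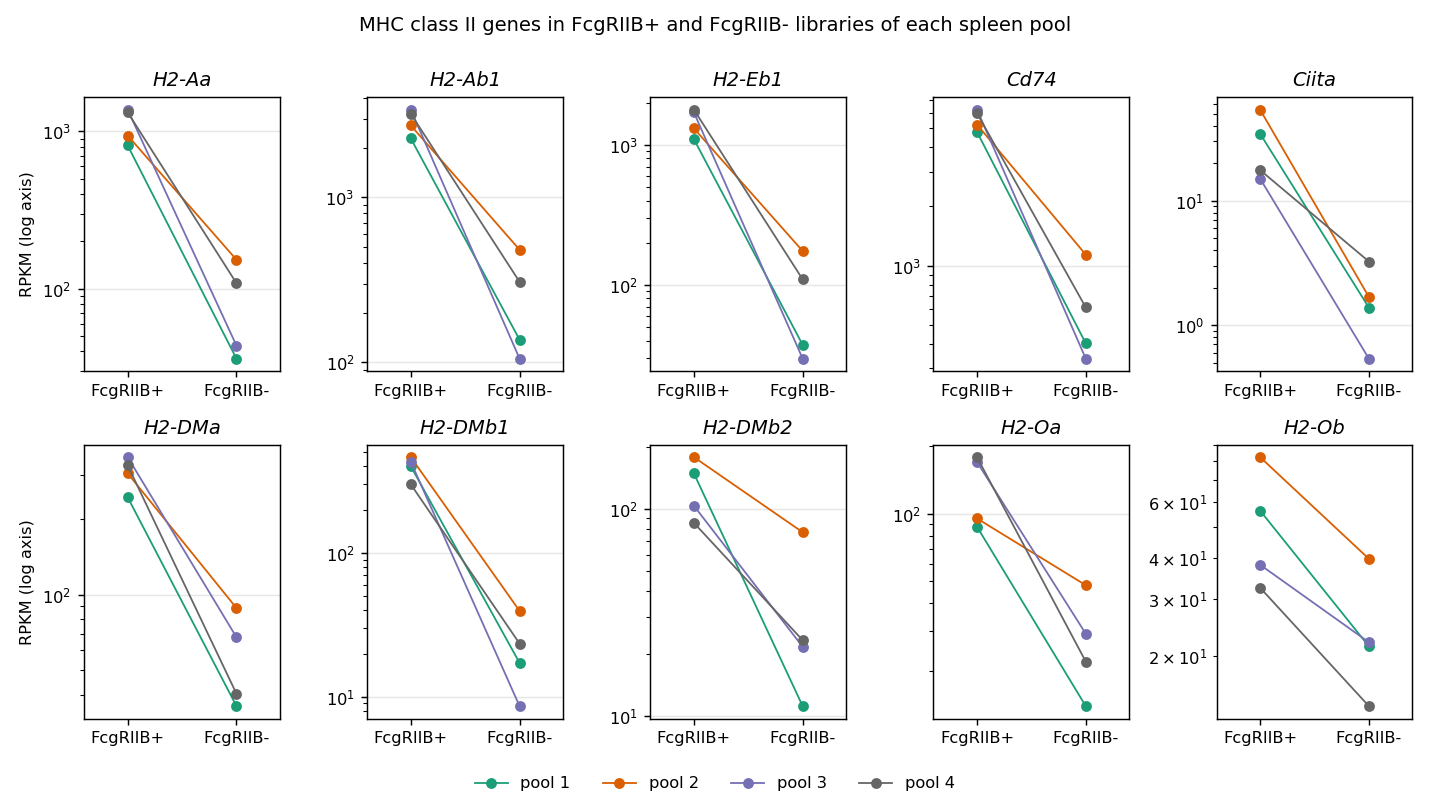
RPKM of each class II gene (vertical log axes, scaled per gene) in the FcgRIIB-positive library (left) and the FcgRIIB-negative library (right) of each spleen pool; a line joins the 2 libraries of a pool. Every line falls to the right, and only for H2-Ob do the groups overlap, with a lowest positive value of 32.5 RPKM and a highest negative value of 39.9 RPKM.

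The classical chains form the peptide-binding molecules I-A (H2-Aa with H2-Ab1) and I-E (whose beta chain is H2-Eb1). The I-E alpha chain gene was not found under the symbol H2-Ea in the deposited table, so H2-Eb1 values alone do not show an I-E molecule. H2-Ab1 was at 2284, 2739, 3414 and 3222 RPKM in FcgRIIB-positive replicates 1 to 4, against 137, 481, 105 and 307 RPKM in negative replicates 1 to 4. H2-Aa, the alpha chain of I-A, was at 815, 942, 1376 and 1323 RPKM in positive libraries, against 35.9, 153, 43.5 and 108 RPKM in negative libraries. H2-Eb1 was at 1099, 1311, 1706 and 1784 RPKM in positive libraries, against 37.3, 174, 29.7 and 109 RPKM in negative libraries. Within the positive group replicates 3 and 4 were the higher ones for all 3 chains, and within the negative group replicates 2 and 4 were. None of the 3 had overlapping groups. In limma H2-Ab1 had a log2 fold change of 3.74 (SE 0.55, adjusted p = 0.00265), H2-Aa one of 3.91 (SE 0.52, adjusted p = 0.00144) and H2-Eb1 one of 4.39 (SE 0.57, adjusted p = 0.00128). The difference of H2-Eb1 ranked 19th from the top among all genes tested.

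Cd74, the invariant chain that chaperones the alpha and beta chains, was the most abundant member in every library. It was at 4794, 5223, 6220.2 and 5973 RPKM in FcgRIIB-positive replicates 1 to 4, against 402, 1137, 336 and 613 RPKM in negative replicates 1 to 4. In the positive libraries it ranked between 1st and 7th of all 13204 genes by RPKM, and in the negative libraries between 25th and 343rd. The groups did not overlap, and limma put the log2 fold change at 3.31 (SE 0.52, adjusted p = 0.00429). Cd74 made up 0.678% to 0.880% of all reads in positive libraries, against 0.0476% to 0.161% in negative libraries.

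Ciita, the transactivator, was the least abundant member by RPKM in all 8 libraries. It was at 34.5, 53.8, 15.0 and 17.6 RPKM in FcgRIIB-positive replicates 1 to 4, against 1.38, 1.68, 0.538 and 3.24 RPKM in negative replicates 1 to 4. No negative library reached a positive one, and limma estimated a log2 fold change of 3.44 (SE 0.44, adjusted p = 0.00116). The ratio of RPKM within a pool was 24.9, 31.9, 27.9 and 5.43 for pools 1 to 4. For H2-Ab1 the same ratios were 16.7, 5.69, 32.5 and 10.5, so the smallest came from pool 4 for Ciita and from pool 2 for H2-Ab1. The highest negative library was replicate 4 for Ciita and replicate 2 for the other 9 members.

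H2-DM is the exchange factor that loads peptide, and it is built of 1 alpha chain and 1 beta chain. H2-DMb1 was at 401, 463, 430.2 and 300.2 RPKM in FcgRIIB-positive replicates 1 to 4, against 17.2, 39.6, 8.62 and 23.5 RPKM in negative replicates 1 to 4. H2-DMa was at 244, 304, 353 and 328 RPKM in positive libraries, against 35.965, 88.4, 67.7 and 40.3 RPKM in negative libraries. H2-DMb2, a second beta chain gene, was at 149, 178, 104 and 85.6 RPKM in positive libraries, against 11.1, 77.1, 21.55 and 23.2 RPKM in negative libraries. For H2-DMb2 negative replicate 2 came close to positive replicate 4, and for the other 2 the groups stood well apart.

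In limma H2-DMb1 had a log2 fold change of 4.27 (SE 0.45, adjusted p = 0.000441), H2-DMa one of 2.47 (SE 0.40, adjusted p = 0.00472) and H2-DMb2 one of 2.22 (SE 0.52, adjusted p = 0.0401). Of 8 limma fits that left out 1 library, 2 called H2-DMb2 (those without positive replicate 4 or negative replicate 2), and its adjusted p reached 0.154 without negative replicate 3. The beta chain genes H2-DMb1 and H2-DMb2 are near-identical copies: their longest coding transcripts in GENCODE M21 were identical at 94.6% of 1219 aligned bases, with a shared run of 221 bases. The sources used here do not give how reads that match both were counted, so the split between the 2 is uncertain. No other pair of beta chain or of alpha chain genes among the members shared a run of over 37 bases.

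H2-O is known mainly from B cells and some dendritic cells, where it holds H2-DM in check. H2-Oa, its alpha chain, was at 87.6, 95.3, 170.3 and 179.0 RPKM in FcgRIIB-positive replicates 1 to 4, against 13.9, 48.0, 29.2 and 21.9 RPKM in negative replicates 1 to 4. Its groups did not overlap, and limma gave a log2 fold change of 2.26 (SE 0.44, adjusted p = 0.0135). The call ended without negative replicate 3 (adjusted p = 0.0544). H2-Ob, the beta chain, was at 56.3, 82.4, 38.2 and 32.5 RPKM in positive libraries, against 21.4, 39.9, 22.01 and 14.0 RPKM in negative libraries. Here the groups overlapped, since negative replicate 2 lay above positive replicates 3 and 4. The log2 fold change of 1.08 (SE 0.41, 95% interval 0.19 to 1.97) did not pass in limma (adjusted p = 0.267) and was called with the pool as a block (adjusted p = 0.00229). Within pools the positive library of H2-Ob was 2.63, 2.07, 1.74 and 2.33 times the negative one, the narrowest range of all members.

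**Figure D2:**
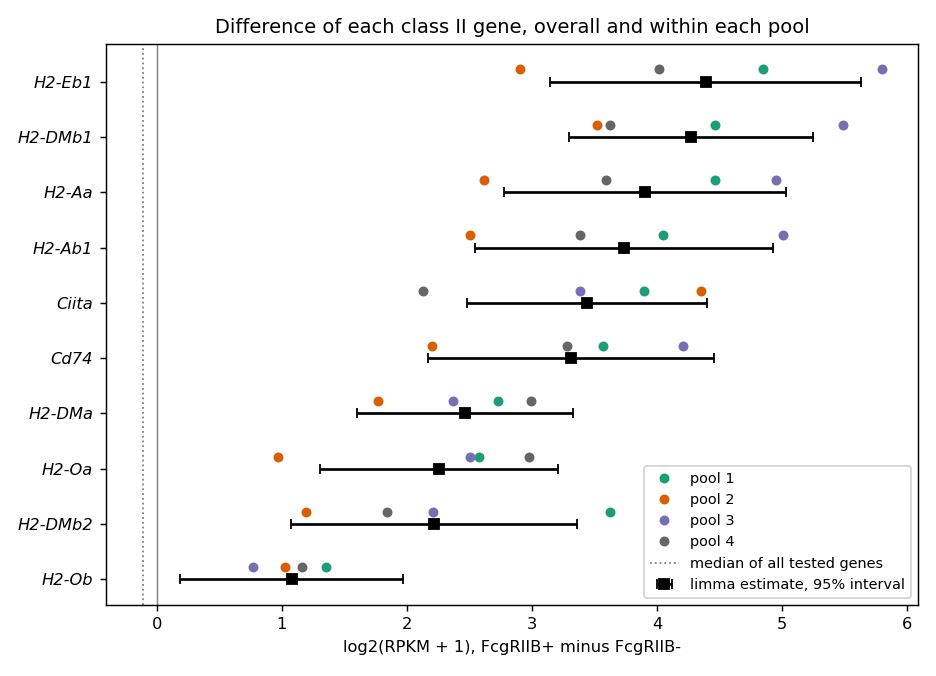
Difference in log2(RPKM + 1), FcgRIIB-positive minus FcgRIIB-negative, for each class II gene, ordered by size; squares with bars are the limma estimate with its 95% interval over 4 libraries per group, coloured points are the 4 pools, and the dotted line is the median of all 11946 genes tested. H2-Eb1 (4.39) and H2-DMb1 (4.27) stand at the top and H2-Ob (1.08) at the bottom, and all 40 pool differences lie above 0.

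In order of difference the members ran from H2-Eb1 and H2-DMb1 through H2-Aa, H2-Ab1, Ciita and Cd74 to H2-DMa, H2-Oa, H2-DMb2 and H2-Ob. Each gap between neighbours in this order was smaller than the standard error of at least 1 of the 2, except those between Cd74 and H2-DMa and between H2-DMb2 and H2-Ob. These gaps between genes were not tested.

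Ratios between 2 members within 1 library do not depend on how libraries are scaled to each other, and they are given as descriptions with no test. The ratio of H2-DMb1 to H2-DMa was 1.64, 1.52, 1.22 and 0.916 in positive replicates 1 to 4, against 0.479, 0.447, 0.127 and 0.582 in negative replicates 1 to 4. The 2 groups did not overlap in this ratio, and in each pool the ratio was higher in the positive library, with the caution on shared reads above. The ratio of H2-DMb2 to H2-DMb1 was 0.241 to 0.384 in positive libraries, against 0.647 to 2.50 in negative libraries, and again the groups stood apart. The ratio of H2-Ob to H2-DMb1 was 0.0889 to 0.178 in positive libraries, against 0.595 to 2.55 in negative libraries.

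Among the classical chains, H2-Eb1 was at 0.479 to 0.554 of H2-Ab1 in positive libraries, against 0.272 to 0.362 in negative libraries, again without overlap. H2-Aa was at 0.344 to 0.410 of H2-Ab1 in positive libraries, against 0.263 to 0.414 in negative libraries, and these ranges overlapped. The ratio of H2-Oa to H2-DMa also overlapped, at 0.313 to 0.546 in positive libraries, against 0.386 to 0.544 in negative libraries. So did H2-Ob to H2-Oa, at 0.181 to 0.864 in positive libraries, against 0.637 to 1.54 in negative libraries. Cd74 to H2-Ab1 (1.82 to 2.10, against 1.99 to 3.20) and H2-DMb1 to H2-Ab1 (0.0932 to 0.176, against 0.0763 to 0.126) overlapped too. H2-DMa to H2-Aa did not (0.248 to 0.323, against 0.372 to 1.56). The proportions of the I-A chains to each other, and of the H2-O to the H2-DM alpha chain, thus overlapped between groups, and those of H2-DMb1 to H2-DMa and of H2-Eb1 to H2-Ab1 did not.

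**Figure D3:**
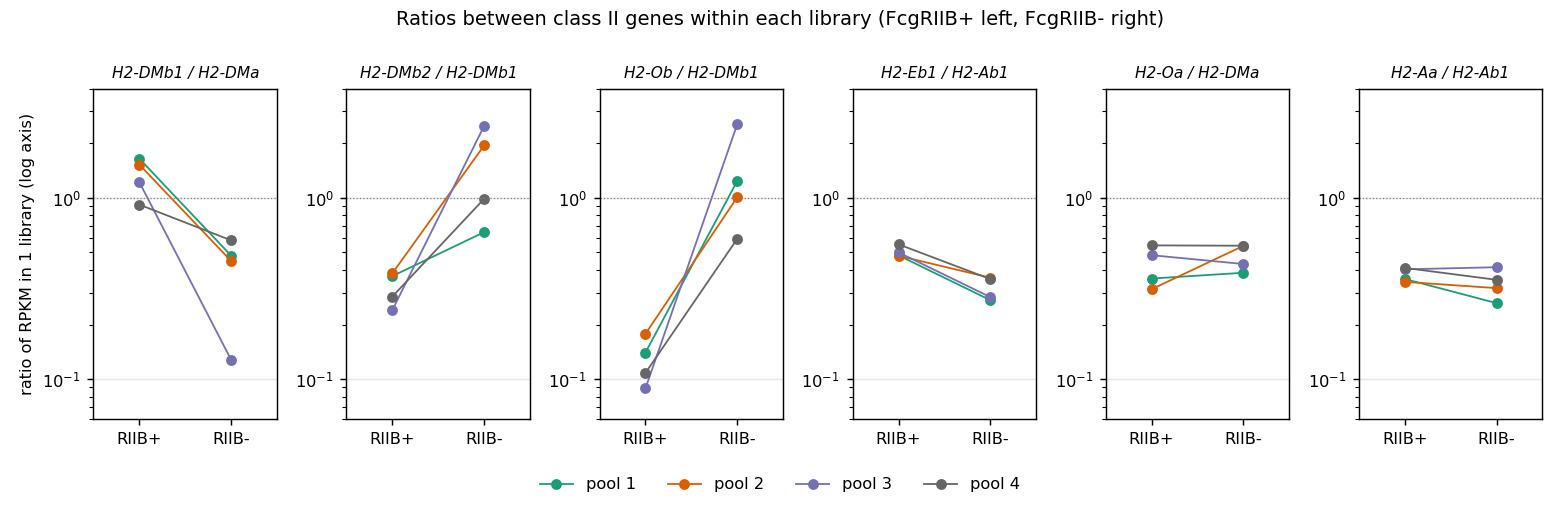
Ratio of RPKM between 2 class II genes within the same library (vertical log axis, the same for all 6 panels), FcgRIIB-positive left and FcgRIIB-negative right, with a line for each pool; the dotted line marks equal levels. H2-DMb1 over H2-DMa, H2-DMb2 over H2-DMb1, H2-Ob over H2-DMb1 and H2-Eb1 over H2-Ab1 separate the groups, and H2-Oa over H2-DMa and H2-Aa over H2-Ab1 do not.

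Replicates 1 and 2 were deeper than replicates 3 and 4, and the positive libraries of these sets differed in several members. In 6 members (H2-Aa, H2-Ab1, H2-Eb1, Cd74, H2-DMa and H2-Oa) positive replicates 3 and 4 both lay above replicates 1 and 2. In 3 members (Ciita, H2-DMb2 and H2-Ob) they both lay below, with log2 differences of -1.35 for Ciita, -0.78 for H2-DMb2 and -0.93 for H2-Ob. Exon length moved with this split over all genes: positive replicates 3 and 4 minus 1 and 2 had a median of 0.34 over the 3985 genes with the smallest summed exon length (62 to 2538 bases) and -0.40 over the 3982 with the largest (4562 to 83437 bases). In the negative libraries the same medians were 0.15 and -0.06, with -0.14 over the genes between. Ciita has 9591 bases of exon, H2-Ob 4290 and H2-DMb2 1185, and the part of length in these differences was not tested. Within replicates 1 and 2 alone limma called 9 members higher, against 7.32% of genes, and within replicates 3 and 4 alone 9 members, against 2.29% of genes, in each case all but H2-Ob.

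Dendritic cell and macrophage markers were also higher in the FcgRIIB-positive libraries, but not in step with the class II genes within that group. In positive replicates 1 to 4 the class II members summed to 9964, 11393, 13826 and 13244 RPKM. There the dendritic cell list summed to 736, 1154, 547 and 563 RPKM, and the macrophage list to 1387, 1687, 1065 and 1082 RPKM. Of 10 dendritic cell markers tested 9 were called higher, with a median log2 fold change of 4.00 and summed levels of 547 to 1154 RPKM in positive libraries, against 24.4 to 81.9 RPKM in negative libraries. Clec9a, which lets dendritic cells sense damaged cells, averaged 88.3 ± 27.9 RPKM in positive libraries, against 2.85 ± 3.52 RPKM in negative ones (SD, n = 4 each). Naaa, a lysosomal amidase, averaged 174 ± 49.6 RPKM in positive libraries, against 8.89 ± 3.38 RPKM in negative ones. All 10 dendritic cell markers were called with the block, and 6 without negative replicate 3. Clec10a was the only marker of that list at 0 in any library, and this was in the negative group. Of 11 macrophage markers 9 were called higher, with a median of 2.89 and sums of 1065 to 1687 RPKM in positive libraries, against 101 to 403 RPKM in negative libraries. All 11 were called with the block, and 5 without negative replicate 3. C1qa, a chain of complement C1q, and Adgre1, an adhesion receptor of tissue macrophages, had log2 fold changes of 2.88 and 3.33. Of 4 plasmacytoid dendritic cell markers tested 1 was called higher, Siglech (log2 fold change 1.95), and it was called in 2 of 8 fits that left out 1 library (adjusted p up to 0.119, without positive replicate 2).

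Most B cell markers were not called. Of 10 tested, 1 was called higher and none lower, and 8 had a log2 fold change below 0, with a median of -0.70. With the pool as a block 1 was higher and 2 were lower. With pool 1, 2, 3 or 4 left out of that fit, 0, 1, 1 and 5 were called lower. After scaling to core T cell genes the median was 0.26, with 0.72 over all genes. The sums were 93.8 to 228 RPKM in positive libraries, against 102 to 486 RPKM in negative libraries, highest in negative replicate 2. That library was also the highest negative one for 9 of 10 class II members and for the macrophage list (403 RPKM). The same held for the plasma cell list, whose sum was 474 RPKM there and at most 35.97 RPKM in the other negative libraries. It did not hold for the dendritic cell list, with sums of 81.9, 33.0, 24.4 and 71.9 RPKM in negative replicates 1 to 4. Of 5 plasma cell genes 1 was called higher, and 3 with the block, and their sums were 384 to 983 RPKM in positive libraries. None of the 5 was called in limma without positive replicate 1, 2 or 3, or without negative replicate 1 or 3. In all 5 the groups overlapped. The B cell receptor chains Cd79a and Cd79b were at 49.7 ± 43.0 and 43.3 ± 14.3 RPKM in positive libraries, against 81.8 ± 67.6 and 85.8 ± 49.6 RPKM in negative ones. Pax5, a defining B cell factor, was not found by symbol in the deposited table. Fcrla, the 1 marker called higher, had a log2 fold change of 2.01. It was called in 2 of 8 fits that left out 1 library (adjusted p up to 0.111, without negative replicate 3). Without negative replicate 2 limma called 9 class II members higher, against 2.49% of genes.

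T cell markers were present in all libraries: the sum over 13 core T cell genes was 1543 to 3562 RPKM in positive libraries, against 4351 to 7039 RPKM in negative libraries. All 13 had a log2 fold change below 0 with a median of -0.98, and limma called none in either direction. At an unadjusted p under 0.05 limma had 7 lower and none higher, and with the pool as a block 7 were called lower. The part of dendritic cells, macrophages, B cells or a change in T cell RNA in the class II differences was not tested, and the files do not show which cells held the transcripts.

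**Figure D4:**
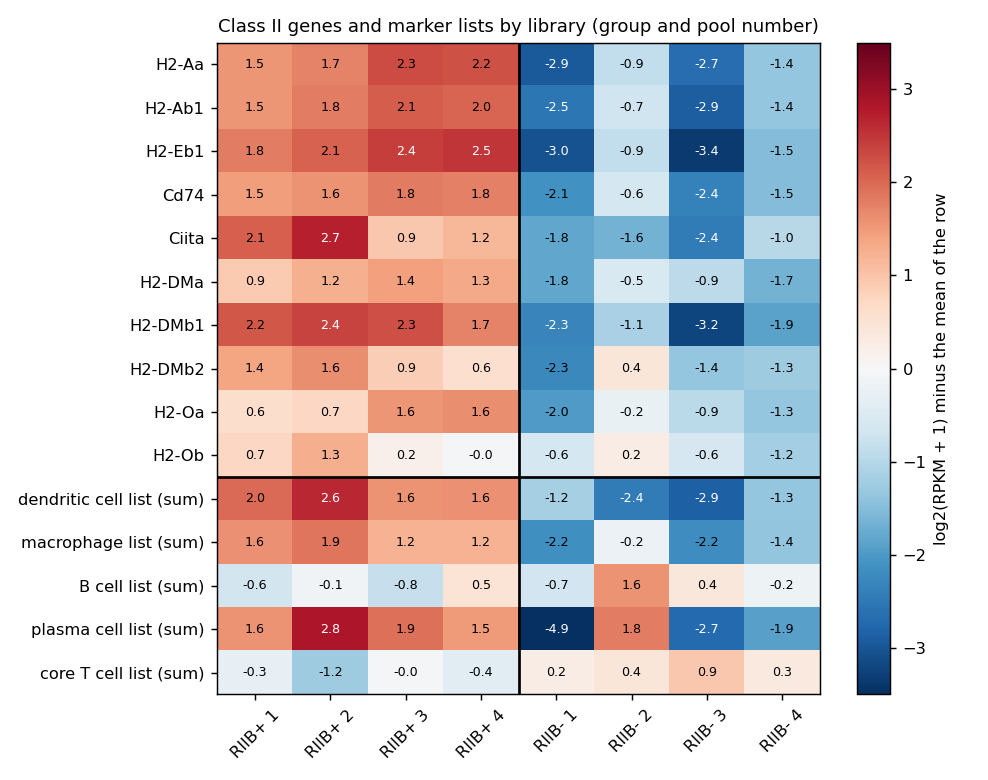
Centred log2(RPKM + 1) of each class II gene (upper rows) and of the summed RPKM of 5 marker lists (lower rows) in the 8 libraries, FcgRIIB-positive replicates 1 to 4 left of the line and FcgRIIB-negative replicates 1 to 4 right of it; each cell prints its value relative to the mean of its row. Apart from H2-Ob, whose groups overlap, the class II genes and the dendritic cell and macrophage lists are high on the left. The B cell list peaks in negative replicate 2, and the core T cell list is lower on the left.

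The genes around the members were described through lists of the pathway. None of the 7 factors that bind class II promoters (the RFX subunits, Creb1 and the NF-Y subunits) was called by limma, also with the block, and their log2 fold changes lay between -0.65 and 0.25. At an unadjusted p under 0.05 none passed without the block and 1 was lower with it. Of 7 regulators of Ciita, 2 were called higher. Spi1, the myeloid and B cell factor PU.1, averaged 132 ± 52.7 RPKM in positive libraries, against 14.1 ± 13.9 RPKM in negative ones (log2 fold change 3.56, SE 0.63, limma adjusted p = 0.00862). Irf8, a factor of dendritic cells and B cells, averaged 164 ± 64.3 RPKM in positive libraries, against 14.8 ± 6.37 RPKM in negative ones (log2 fold change 3.42, SE 0.42, limma adjusted p = 0.000869). The other 5, which include Irf1 of the interferon response, lay between -0.42 and 0.55 and were not called.

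Among 10 genes listed for lysosomal processing of antigen or the invariant chain, 4 were called higher by limma and none lower, with a median of 1.51. With the block 7 were called higher. The 4 called without the block were Cst3, a cathepsin inhibitor, Ctsh, a cathepsin, Lgmn, the asparaginyl endopeptidase, and Ifi30, the thiol reductase GILT. Their log2 fold changes were 3.63, 3.35, 2.70 and 2.61 in that order. Marchf1, the ubiquitin ligase that sends surface class II for degradation, averaged 23.6 ± 15.6 RPKM in positive libraries, against 2.02 ± 1.60 RPKM in negative ones, and was called higher (log2 fold change 2.91), except in replicates 3 and 4 alone (adjusted p = 0.125). Cd83, which opposes that ligase, was called higher too (2.98), except without negative replicate 3 (adjusted p = 0.0583). Mif, a ligand of surface CD74, averaged 536 ± 457 RPKM in positive libraries, against 724 ± 484 RPKM in negative ones, a difference within the replicate spread (log2 fold change -0.73, SE 0.77, limma adjusted p = 0.889), whose sign turned after scaling to core T cell genes.

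Of 6 ligands with which antigen-presenting cells signal to T cells, Icosl, Cd80, Cd40 and Cd86 were called higher, with log2 fold changes of 2.23, 1.28, 2.41 and 2.01 in that order. Of 8 fits that left out 1 library, Icosl was called in 6, Cd80 in 2, Cd40 in 3 and Cd86 in 2, and none of the 4 was called without positive replicate 1 or without negative replicate 3. The adjusted p reached 0.121 for Cd80 without positive replicate 2, and without negative replicate 3 it reached 0.0983 for Icosl, 0.124 for Cd40 and 0.167 for Cd86. H2-Eb2, a further beta chain gene of the region, averaged 3.09 ± 1.37 RPKM in positive libraries, against 0.884 ± 0.868 RPKM in negative ones. It did not pass in limma (log2 fold change 1.16, adjusted p = 0.227) and was called with the block (adjusted p = 0.0238), but not with pool 1, 2 or 3 left out of that fit (adjusted p up to 0.257).

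The class I pathway, which nearly all nucleated cells use, served as the comparison. None of its 10 genes was called by limma in either direction, also with the block (none at an unadjusted p under 0.05 in limma), and their median log2 fold change was 0.01, with a range from -0.50 to 0.53. After scaling to core T cell genes that median was 1.04, with 0.72 over all genes and 4.27 over the class II members, and 1 class I gene was called higher. H2-D1, a class I heavy chain, averaged 1480.0 ± 89.3 RPKM in positive libraries, against 1822 ± 308 RPKM in negative ones. B2m, the light chain, averaged 1264 ± 652 RPKM in positive libraries, against 1358 ± 548 RPKM in negative ones. H2-Ab1 was at 2.93 to 6.03 times the class I chain H2-K1 in positive libraries, against 0.103 to 0.5001 times in negative libraries. Class I chain genes resemble each other closely, so reads can be shared among them.

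**Figure D5:**
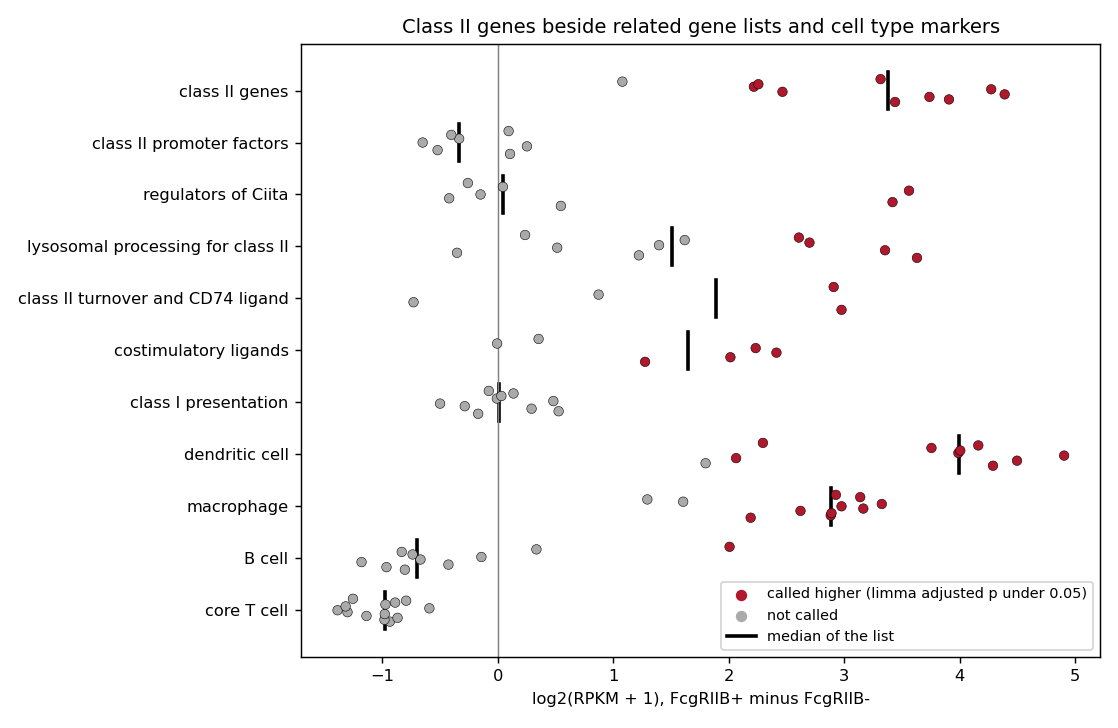
Log2 fold change of each tested gene, FcgRIIB-positive minus FcgRIIB-negative on the log2(RPKM + 1) scale, for the class II genes (top row), related lists and cell type markers; red points were called higher by limma at an adjusted p under 0.05, grey points were not called, and black bars are list medians. The class II genes (median 3.38) lie among the dendritic cell (4.00) and macrophage (2.89) markers, and promoter factors (-0.33) and class I genes (0.01) lie near 0.

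The genes whose profiles over the 8 libraries were most like those of the classical chains were found by the root mean square difference of centred log2(RPKM + 1) values from the mean of H2-Aa, H2-Ab1 and H2-Eb1. This is a description over libraries that share the group difference. The nearest genes outside the members were Alox5ap, the activator of leukotriene synthesis, at 0.19, AF251705 at 0.27, Hfe, an iron regulator related to class I chains, at 0.32, Csf2ra, a chain of the GM-CSF receptor, at 0.34, Rnase6 at 0.36 and I830077J02Rik at 0.41. Among members outside the profile Cd74 and H2-DMb1 both lay at 0.43, Ciita was at 0.88, H2-DMa at 0.99, H2-Oa at 1.03, H2-DMb2 at 1.09 and H2-Ob farthest at 1.68. Among the nearest genes to H2-Ob were Tnfrsf1a, Hexa, Tmem39a, Zfp36 and Leprot, at 0.21 to 0.24, with log2 fold changes of 0.86 to 1.48, and the nearest class II member was H2-DMb2 at 0.76.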

How the data were processed

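The deposited table gives RPKM per gene and library, per the file headers. The submitters' processing notes name TopHat2 and the mouse build mm9, and the labels' protocols name SMART-seq v4 cDNA and NexteraXT libraries. The counting tool, annotation and use of strand are not given in the sources used here. Exon lengths in bases, another column of the deposited table, turned RPKM into reads: 99.9% to 100% of values under 200 reads per library came out whole within 0.1 reads. Every gene of the table reached 3 RPM in at least 4 libraries. RPKM are not counts, so limma 3.58.1 (R 4.3.3; lmFit, eBayes with a trend, two-sided) was fitted to log2(RPKM + 1) with group as its single term. The filter kept 11946 genes (1 RPKM or more in 4 or more libraries). All 10 members passed that filter, 9 of them with at least 1 RPKM in all 8 libraries. P-values were Benjamini-Hochberg adjusted over all genes tested, with a threshold of 0.05. The steps were tested on simulated data.

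Per the series' design text, libraries of the same number come from 1 pool of spleens. Within pools 1 to 4, deviations from group means had correlations of 0.70, 0.41, 0.56 and 0.68. Between different pools of 1 set (1 with 2, or 3 with 4) they were 0.32 to 0.68. Positive replicate 2 correlated more with negative replicate 1 (0.68) than with negative replicate 2. Between the sets all were negative (-0.74 to -0.33), so these values follow the sets and do not by themselves show the pairing. A fit with this replicate block is given beside calls and counts that it changes.

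Members and gene lists were chosen with earlier results of these data known. The naming rule took the members, the sort markers and, from each list, up to 4 called genes by smallest p and the 2 most abundant, 56 genes in all; those not named stand in counts and ranges. It also took the 6 genes nearest in profile to the classical chains and to H2-Ob. Single-gene values of some genes it took are not reported here. Symbols of 21 genes turned into dates were restored through Entrez IDs, of which 13187 matched RefSeq (GRCm38.p6). Alternatives were other pseudocounts, no filter, the block, 4 scalings, no variance trend, libraries or pools left out, and replicates 1 and 2 or 3 and 4 alone. GENCODE M21 transcripts were aligned locally (match 2, mismatch -1).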

Additional observations from a re-analysis of the deposited data

Results flagged for a closer look

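Of 70 groups of 4 libraries examined on the log2 scale (35 genes in 2 groups), 1 held a library whose gap to the nearest of the others passed Dixon's 95% critical value. It was Ctsh in FcgRIIB-positive replicate 2, at 262.5 RPKM, above the other 3 positive libraries (gap over range 0.948). Chance flags about 1 in 20 such groups. No class II member was flagged in either group.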

How the results depend on the processing

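Over 23 alternatives each, 7 of the 10 members (H2-Aa, H2-Ab1, H2-Eb1, H2-DMa, H2-DMb1, Cd74 and Ciita) were called higher in every one. H2-Oa was called in 22, H2-DMb2 in 17 and H2-Ob in 6, and no member changed direction in any. The count of members called higher was 7 to 9 with 1 library left out and 10 with each pool left out under the block. The replicate block called 863 genes higher and 460 lower, against 362 and 32 without it; with pool 1, 2, 3 or 4 left out under the block, 576, 800, 617 and 1242 were called higher and 261, 350, 157 and 458 lower. With 1 library left out limma called 178 (without negative replicate 3) to 503 genes higher and 5 (without negative replicate 3) to 45 lower. Replicates 1 and 2 alone gave 875 higher and 142 lower, and replicates 3 and 4 alone gave 11 lower. The lower count was 19 after scaling to median ratios, 59 by quantiles and 19 without a variance trend.

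Scaling libraries to the core T cell genes gave 1148 higher and 2 lower; it moved the median of all genes to 0.72, and the members' median was 4.27 there. With that scaling Mif was at 0.30, H2-D1 at 0.74, B2m at 0.86, Cd79b at 0.18 and Cd79a at 0.34, positive where the reported value was negative and none of them called. B2m also turned positive without positive replicate 1 or 2 or negative replicate 3, with a range of -0.43 to 0.10 over the libraries left out. For these changes the cause was not tested. Depth limits Ciita most, with 38 reads in negative replicate 3.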
